A study of Rattus norvegicus with 3 samples.

Results

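Wnt signalling was examined at the level of its transcripts in Schwann cell precursors in culture, which are early glial cells of the developing peripheral nerve. The members are 58 of the 17337 genes listed in the authors' table, found by name. The names were chosen with earlier results of these data known. The names cover Wnt ligands, Frizzled receptors, Dishevelled genes, Sfrp and Dkk genes, R-spondins, Lgr4 and Lgr5, Axin2, and 16 named components. Of the named components, Tcf7 and Znrf3 have no row under that name and were not analysed here. The same holds for Axin1, Fzd7, Lgr6, Rspo4 and Wnt2 from the families. The 3 libraries form 1 group of primary glial cells of wild type genotype from the dorsal root ganglion of embryonic rats, untreated and grown in a modified Sato medium. The embryonic age, the number of pooled animals and the relation of the libraries to cultures are not stated in the sources used, and the spread between libraries may be technical. There is no second group, and all results are levels within these cultures. In bulk RNA a low level from every cell and a high level from few cells cannot be told apart, nor can fewer cells of a type and less RNA per cell.

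Wnt proteins are secreted, lipid-modified ligands that bind Frizzled receptors together with the co-receptors Lrp5 and Lrp6. Receptor activation recruits Dishevelled and inhibits a destruction complex built on Axin and Apc, in which casein kinase and Gsk3 mark beta-catenin for degradation, and the beta-catenin that accumulates drives transcription with TCF/LEF factors. Other Wnt signals act through Ror, Ryk and planar polarity proteins without beta-catenin. In the neural crest, from which Schwann cell precursors arise, Wnt signalling takes part in induction, migration and fate choice.

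The libraries held 14139074 to 15309526 counts. Levels are TPM, a unit corrected for gene length with the same total in each library, and are given as mean ± SD (n = 3) unless the 3 libraries are listed in the order of replicates 1, 2 and 3. All 13 genes of a Schwann cell precursor marker list were above 1 TPM by the test described next. The lowest was Fabp7, at 3.32 ± 1.31 TPM on 11, 11 and 20 counts. Of all genes tested 78.4% were above 1 TPM, so these counts of genes alone do not tell cell types apart. Among lists of other cell types the fibroblast list was the most abundant, with 10 of 14 measured genes above 1 TPM and a summed level of 8673 to 8877 TPM, against 10388 to 10608 TPM for the precursor list. In the fibroblast list Ogn had no count, and Col1a2, at 0.137 ± 0.0393 TPM, is like Ogn listed at 2 places in the genome. For sensory neurons 16 of 19 genes were above (summed level 923 to 944 TPM, none at 0), for mural cells 7 of 7 (955 to 1006 TPM), for macrophages 6 of 9 (31.4 to 35.3 TPM, none at 0) and for endothelium 4 of 8 (37.7 to 39.2 TPM, with Cldn5 at 0). In the mural list Tagln, Acta2 and Pdgfrb were at 466, 317 and 173 TPM, and the other genes, Des, Cspg4, Rgs5 and Myh11, at 1.69 to 7.89 TPM. The part of these other cells in the levels below was not tested.

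Transcripts of receptor, cytoplasmic and nuclear genes of the pathway were detected, though not necessarily in the same cells. Of the 18 ligand genes, 10 were below 1 TPM or had no count. At 1 TPM or more in each library were 38 of 58 members (65.5%), where 60.6% of all listed genes reached that level. Each gene with a count was tested with limma, a moderated one-sample test that sets log2(TPM + 1) against a level of 1 TPM, using Benjamini-Hochberg adjustment over all 13345 genes tested and a threshold of 0.05. Of the 49 members with a count, 38 (77.6%) were above 1 TPM, against 78.4% of all genes tested, and 10 (20.4%) were below, against 17.8%. These shares lie near those of all genes, and so the whole set is not set apart by how many members it expresses. The median over members was 4.58 TPM, and over all listed genes 8.38 TPM.

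The members divided by role. All 15 genes for Wnt secretion, co-receptors, Dishevelled, the destruction complex, beta-catenin and TCF/LEF factors reached 1 TPM in every library. Of the 31 genes that encode secreted ligands, R-spondins and inhibitors, 15 did (48.4%), and of all listed genes 60.6% did. Among the remaining members, 6 of 9 Frizzled genes reached that level, as did Lgr4 and Lgr5, while Rnf43 did not. A count of 0 limits a level to 3 counts, which for the 9 members with no count is 0.068 to 0.3 TPM, for counting error only. Two-place listing touches 2 of those 9, Dkk1 and Fzd8, each with a repeated set of exons. Among the 504 genes with such a listing, 87.9% were below 1 TPM in every library, against 35.4% of the other genes, so the 0 of Dkk1 and Fzd8 is not read as absence.

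**Figure D1:**
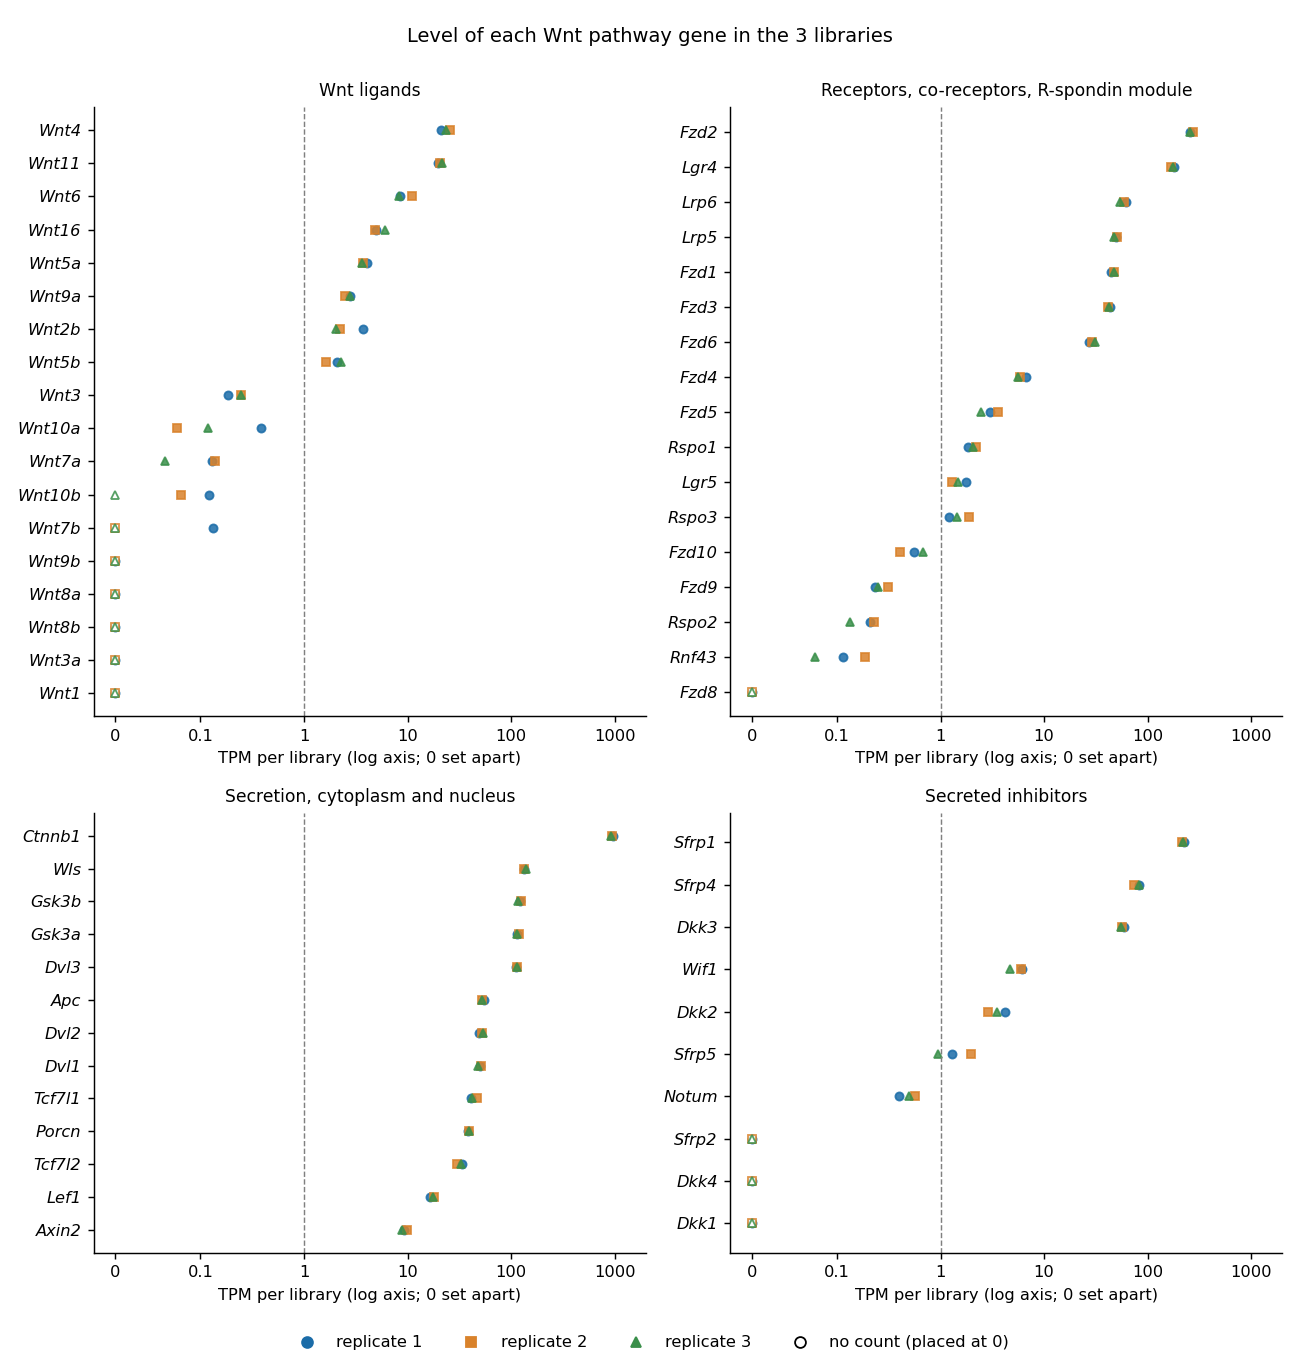
TPM of all 58 members in each library on log axes, by role, with 1 symbol per replicate, a dashed line at 1 TPM and open symbols at 0 where a library had no count. Ctnnb1 stands highest, at 922 to 960 TPM, and 10 of the 18 ligand genes lie left of the dashed line.

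Of 18 Wnt ligand genes, 8 were above 1 TPM, 5 below and 5 without a count, and their summed level was 70.4 ± 2.42 TPM. Of all 17337 listed genes, 10458 were above, 2374 below and 3992 without a count. The share of ligands without a count was thus near that of all genes, while the share above was lower and the share below higher. The most abundant was Wnt4, at 21.0, 25.5 and 23.8 TPM. Wnt11, a ligand best known for beta-catenin-independent signalling, followed at 19.7, 20.7 and 21.6 TPM. The ranges of Wnt4 and Wnt11 overlap, and together they made up 33.2 ± 2.07% and 29.3 ± 1.01% of the ligand sum. Wnt6, a ligand described in neural crest induction, was at 8.53, 10.9 and 8.24 TPM, below both in every library.

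Lower ligands were Wnt16 at 4.97, 4.90 and 6.12 TPM and Wnt5a, the prototype of beta-catenin-independent ligands, at 4.09, 3.70 and 3.67 TPM. Wnt5a exceeded its close relative Wnt5b, at 2.11, 1.65 and 2.26 TPM, by a log2 ratio of 0.91 ± 0.22, or 2.24 with no length term. Wnt9a was at 2.76, 2.48 and 2.79 TPM and Wnt2b at 3.74, 2.21 and 2.05 TPM. The ranges of Wnt9a and Wnt2b overlap, as do those of Wnt2b and Wnt5b. The Wnt2b value of replicate 1 rests on 49 counts, against 27 and 25 in the others, and its 95% exact Poisson interval of 2.77 to 4.94 TPM overlaps theirs (1.46 to 3.22 and 1.32 to 3.02 TPM).

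Several ligands known as activators of beta-catenin, such as Wnt1, Wnt3 and Wnt3a, were at the bottom of the order. Wnt3 had 4, 5 and 5 counts (0.226 ± 0.0364 TPM), Wnt7a 3, 3 and 1, Wnt10b 2, 1 and 0, and Wnt7b 1, 0 and 0. Wnt10a had 7, 1 and 2 counts, or 0.384, 0.059 and 0.118 TPM. All of these were below 1 TPM by limma with adjusted p of 8.85e-05 or less. Wnt1, Wnt3a, Wnt8a, Wnt8b and Wnt9b had no count, which allows Wnt1 up to 0.185 and Wnt3a up to 0.165 TPM in the least deep of the libraries.

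Several Wnt genes lie beside each other in the genome, and these neighbours had unequal levels. In rn6 coordinates, 4 pairs of members have 50 kb or less between them. Wnt6 (chromosome 9, 82033543 to 82047172, plus strand) and Wnt10a (82053581 to 82066047, plus strand) are 6.41 kb apart, and Wnt6 was at 9.23 ± 1.47 TPM where Wnt10a was at 0.187 ± 0.173. Wnt9a (chromosome 10, 45659056 to 45686089, plus strand) was at 2.68 ± 0.167 TPM, and Wnt3a, 21 kb away on the minus strand, had no count. The other two pairs, Wnt10b with Wnt1 on chromosome 7 and Wnt9b with Wnt3 on chromosome 10, had both members below 1 TPM. No listed exon of any member overlaps an exon of another gene in the table, though overlap with genes outside the table was not tested.

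Genes for making and exporting Wnt proteins were well above the ligands. Wls, the carrier that takes Wnt proteins to the cell surface, was at 133, 133 and 139 TPM. Porcn, the enzyme that adds the lipid, was at 38.7, 39.2 and 39.3 TPM. Wls exceeded Porcn by a log2 ratio of 1.79 ± 0.03 (SD), 3.39 to 3.54 times in the 3 libraries, with a log2 ratio of 2.76 without the length term. Notum, a secreted enzyme that removes the lipid again, had 6, 8 and 7 counts (0.489 ± 0.0864 TPM) and was below 1 TPM by limma.

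Frizzled transcripts were dominated by 1 gene. Fzd2, on chromosome 10 from 90550147 to 90552057 on the plus strand in rn6, was at 254, 274 and 255 TPM and made up 67.2 ± 0.939% of the summed level of the 9 measured Frizzled genes. Fzd1 was next at 44.0, 47.5 and 47.4 TPM, so that Fzd2 was 5.37 to 5.77 times higher (log2 ratio 2.49 ± 0.06). With no length term the log2 ratio was 1.28, as the listed length is 1904 bases for Fzd2 and 4399 for Fzd1. Fzd3, a receptor of planar polarity and axon growth, was at 42.9, 41.3 and 41.9 TPM, below Fzd1 in every library by a small margin. Fzd6, its closest relative, was at 27.2, 29.0 and 31.0 TPM.

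The remaining Frizzled genes were low. Fzd4, the receptor of norrin, was at 6.64, 5.82 and 5.54 TPM, and Fzd5 at 3.002, 3.56 and 2.48 TPM. Fzd10 had 13, 9 and 15 counts (0.548 ± 0.136 TPM) and Fzd9 had 4, 5 and 4 (0.266 ± 0.0421 TPM), both below 1 TPM by limma, and Fzd8 had no count. The Frizzled sum, 388 ± 12.6 TPM, was 5.51 ± 0.0851 times the ligand sum. Fzd7, a close relative of Fzd1 and Fzd2, is not part of these sums, nor is the ligand Wnt2.

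Both co-receptors were present at like levels. Lrp6 was at 62.0, 59.5 and 54.6 TPM and Lrp5 at 49.7, 50.004 and 47.7 TPM, with Lrp6 higher in 3 of 3 libraries by 1.14 to 1.25 times (log2 ratio 0.25 ± 0.06). For each pair of genes the exact sign-flip permutation test over the 3 libraries cannot give a two-sided p below 0.25, and 12 of the 13 measured pairs reached 0.25, so none can pass a threshold of 0.05. Ratios between genes also rest on the listed gene lengths.

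The R-spondin module, which protects Frizzled receptors from removal by the ubiquitin ligases Znrf3 and Rnf43, was uneven. Lgr4, an R-spondin receptor, was at 179, 168 and 174 TPM. Lgr5, a receptor of the same family that marks several stem cells, was at 1.77, 1.30 and 1.49 TPM, so that Lgr4 was 101 to 129 times higher (log2 ratio 6.76 ± 0.17, or 6.12 with 1 TPM added to each gene in place of 0.1). Rnf43 had only 2, 3 and 1 counts (0.121 ± 0.0622 TPM). Among the ligands of the module, Rspo1 was at 1.83, 2.22 and 2.05 TPM, Rspo3 at 1.21, 1.88 and 1.44 TPM, and Rspo2 at 0.21, 0.226 and 0.135 TPM. The call of Rspo3 as above 1 TPM (limma adjusted p = 0.0117) rests on 9, 13 and 10 counts and was lost without replicate 2 (adjusted p = 0.0734) and with no filter on low values (adjusted p = 0.0577), in a range of 0.0114 to 0.0734 over the 10 alternatives.

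**Figure D2:**
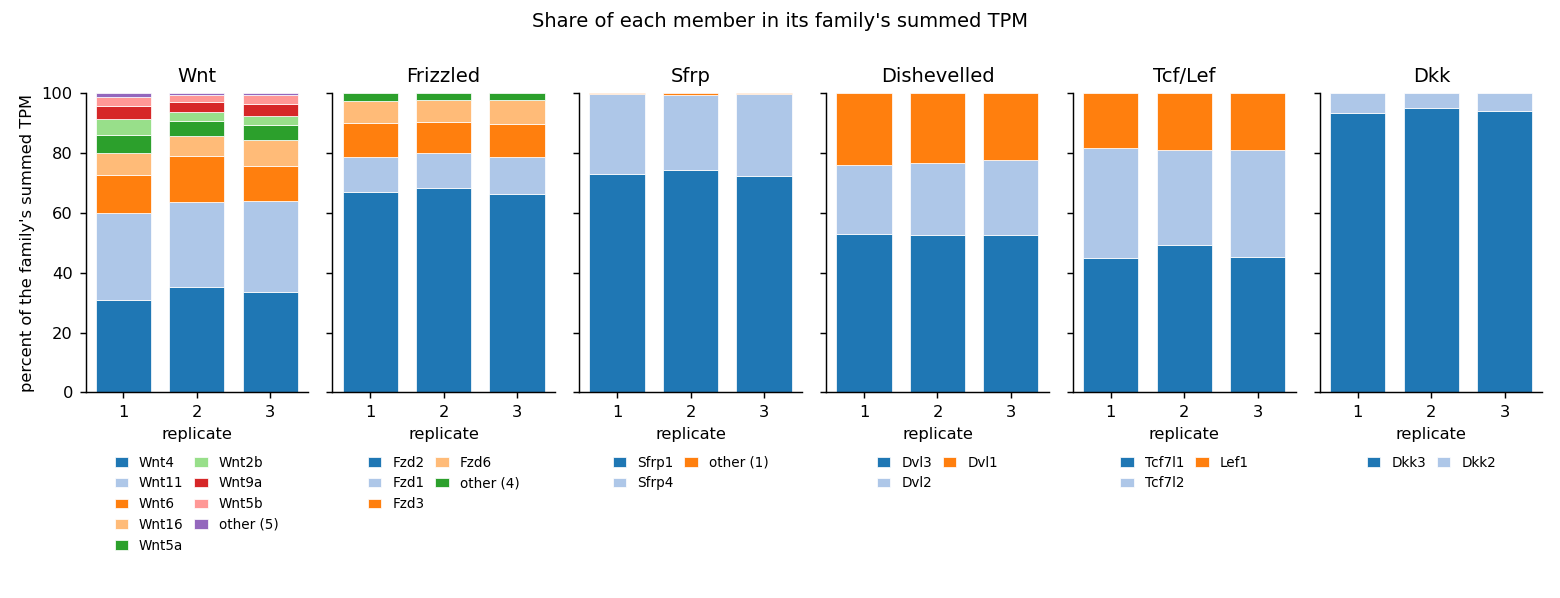
Share of each member in its family's summed TPM, in percent, for 6 families in replicates 1 to 3; members with a mean share under 2% are joined as other. Fzd2, Sfrp1 and Dkk3 take over 60% of their families in each library, whereas Wnt4 and Wnt11 share most of the ligand sum.

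Inside the cell, beta-catenin was by far the most abundant member. Ctnnb1 (chromosome 8, 129617853 to 129627362, plus strand) was at 960, 932 and 922 TPM and ranked at position 138 of all genes by mean TPM. Its relative Jup, which encodes plakoglobin, was at 115 ± 3.33 TPM, and Ctnnb1 was 7.87 to 8.56 times higher. Beta-catenin also serves cadherin junctions, and the transcript level does not tell which pool the protein is in.

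The kinases of the destruction complex were near each other. Gsk3b was at 121, 123 and 117 TPM and Gsk3a at 115, 118 and 113 TPM, and their ranges overlap although Gsk3b was higher in each library (log2 ratio 0.06 ± 0.02). Without the length term the sign turned, to -0.41, as the listed length is 1525 bases for Gsk3b and 2121 for Gsk3a. The scaffold Apc was at 54.3, 51.8 and 52.1 TPM. Axin2, both a scaffold of the complex and a widely used target of the pathway, was at 9.24, 9.78 and 8.84 TPM, the lowest of this group.

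Among the Dishevelled genes, which relay the signal from Frizzled, Dvl3 was at 111, 114 and 113 TPM and took 52.7 ± 0.147% of the family's level. Dvl2 was at 48.5, 51.9 and 53.4 TPM and Dvl1 at 50.5, 50.7 and 48.4 TPM. Dvl3 was 2.12 to 2.29 times higher than Dvl2 in the 3 libraries. Dvl1 and Dvl2 could not be ordered (log2 ratio -0.04 ± 0.10, exact sign-flip permutation p = 0.75), with Dvl1 higher in replicate 1 and Dvl2 in the others.

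Of the nuclear factors, Tcf7l1, mostly known as a repressor of Wnt targets, was the highest at 41.1, 46.8 and 41.9 TPM. Tcf7l2 followed at 33.6, 30.3 and 33.1 TPM, lower in 3 of 3 libraries (Tcf7l2 over Tcf7l1, log2 ratio -0.42 ± 0.18). Lef1, mostly known as an activator and itself a target, was at 16.7, 18.02 and 17.6 TPM, below Tcf7l2 by 1.68 to 2.02 times (log2 ratio of Tcf7l2 over Lef1 0.89 ± 0.13). The listed length is 1194 bases for Lef1 and 2992 for Tcf7l2, and without the length term that log2 ratio was 2.20.

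**Figure D3:**
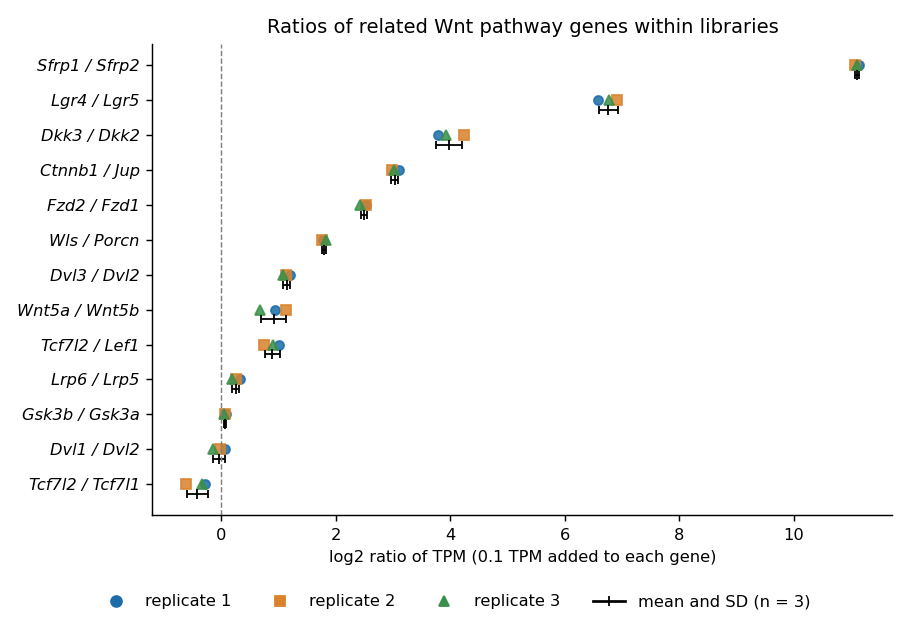
Log2 ratio of TPM (each gene raised by 0.1 TPM) for the 13 measured pairs in each library, with the mean and SD as black bars. Most pairs lie to 1 side of the dashed line at 0 in all 3 libraries, Dvl1 / Dvl2 straddles it, and the place of Sfrp1 / Sfrp2 is set by the added 0.1 TPM because Sfrp2 had no count.

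Transcripts of the genes grouped as secreted inhibitors were, in sum, more abundant than those of the measured ligands. Wnt2 is not part of the ligand sum, and the inhibitor sum includes Dkk3, a divergent member of its family. The summed level of the 10 inhibitor genes was 368 ± 10.9 TPM, which was 5.58, 4.91 and 5.20 times the ligand sum (exact sign-flip permutation p = 0.25, the smallest possible). Sfrp1, a secreted protein with a Frizzled-like domain (chromosome 16, 73372007 to 73410777, minus strand), was at 225, 216 and 220 TPM and made up 73.2 ± 0.933% of the Sfrp level. Sfrp4 was at 82.0, 73.1 and 83.3 TPM. Sfrp2 had no count in any library, and Sfrp1 was at least 978-fold higher than the level that 3 counts of Sfrp2 would give in each library. Sfrp2 is listed at 1 place, so the two-place listing does not apply to it.

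Sfrp5, at 1.29, 1.97 and 0.95 TPM, was the only member with a count that passed in neither direction (limma adjusted p = 0.084). Without replicate 3, its lowest library, Sfrp5 was above 1 TPM (adjusted p = 0.00655), in a range of 0.00655 to 0.486 over 10 alternatives. Dkk3, a divergent member of the Dickkopf family, was at 58.9, 55.9 and 55.1 TPM and took 94.1 ± 0.9% of the Dkk level. Dkk2, which binds Lrp co-receptors, was at 4.21, 2.87 and 3.53 TPM, 14 to 19.5 times lower than Dkk3 (log2 ratio of Dkk3 over Dkk2 3.98 ± 0.23, or 4.69 with no length term). Dkk4 had no count, nor had Dkk1, which is listed at 2 places. Wif1, a protein that binds Wnt ligands directly, was at 6.16, 6.01 and 4.72 TPM.

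Other genes of the pathway were taken from lists of its partners. Of 65 partner genes 55 were measured, and by limma 50 were above and 3 below 1 TPM, with 2 at 0. Over all genes tested 78.4% were above and 17.8% below, and the median was 39.7 TPM over the measured partners and 21.7 TPM over all genes with a count. Among genes of the destruction complex and beta-catenin turnover 11 of 13 were above, led by the casein kinase Csnk1a1 at 434 ± 7.93 TPM, the phosphatase subunit Ppp2r1a at 413 ± 3.60, and the kinases Csnk1d at 150 ± 1.35 and Csnk1e at 133 ± 3.98. The tankyrase Tnks2 had no count and Ppp2ca was at 0.221 ± 0.178 TPM, and both are listed at 2 places. All 11 measured nuclear partners were above 1 TPM, with the corepressors Tle3 at 123 ± 2.19 and Tle4 at 81.5 ± 2.58, the beta-catenin cofactor Pygo2 at 92.2 ± 2.61 and the beta-catenin antagonist Cby1 at 66.0 ± 5.50 TPM.

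Of the genes of beta-catenin-independent signalling, all 15 measured were above 1 TPM (78.4% of all genes tested were), with a median of 24.1 TPM, near the 21.7 TPM of all genes with a count. Among them were the pseudokinase receptors Ptk7 at 156 ± 4.37 and Ryk at 109 ± 3.23 TPM, the planar polarity cadherin Celsr2 at 136 ± 5.83 and the scaffold Scrib at 86.5 ± 1.77. Of the other extracellular and membrane modulators 13 of 16 were above, led by the secreted protein Cthrc1 at 594 ± 7.79, the Lrp-binding inhibitor Sostdc1 at 237 ± 11.2, the glypican Gpc3 at 213 ± 1.17 and the membrane inhibitor Tpbg at 103 ± 3.75 TPM. Sost had no count, Kremen2 was at 0.0233 ± 0.0404 TPM and Ndp, listed at 2 places, at 0.0503 ± 0.0872.

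**Figure D4:**
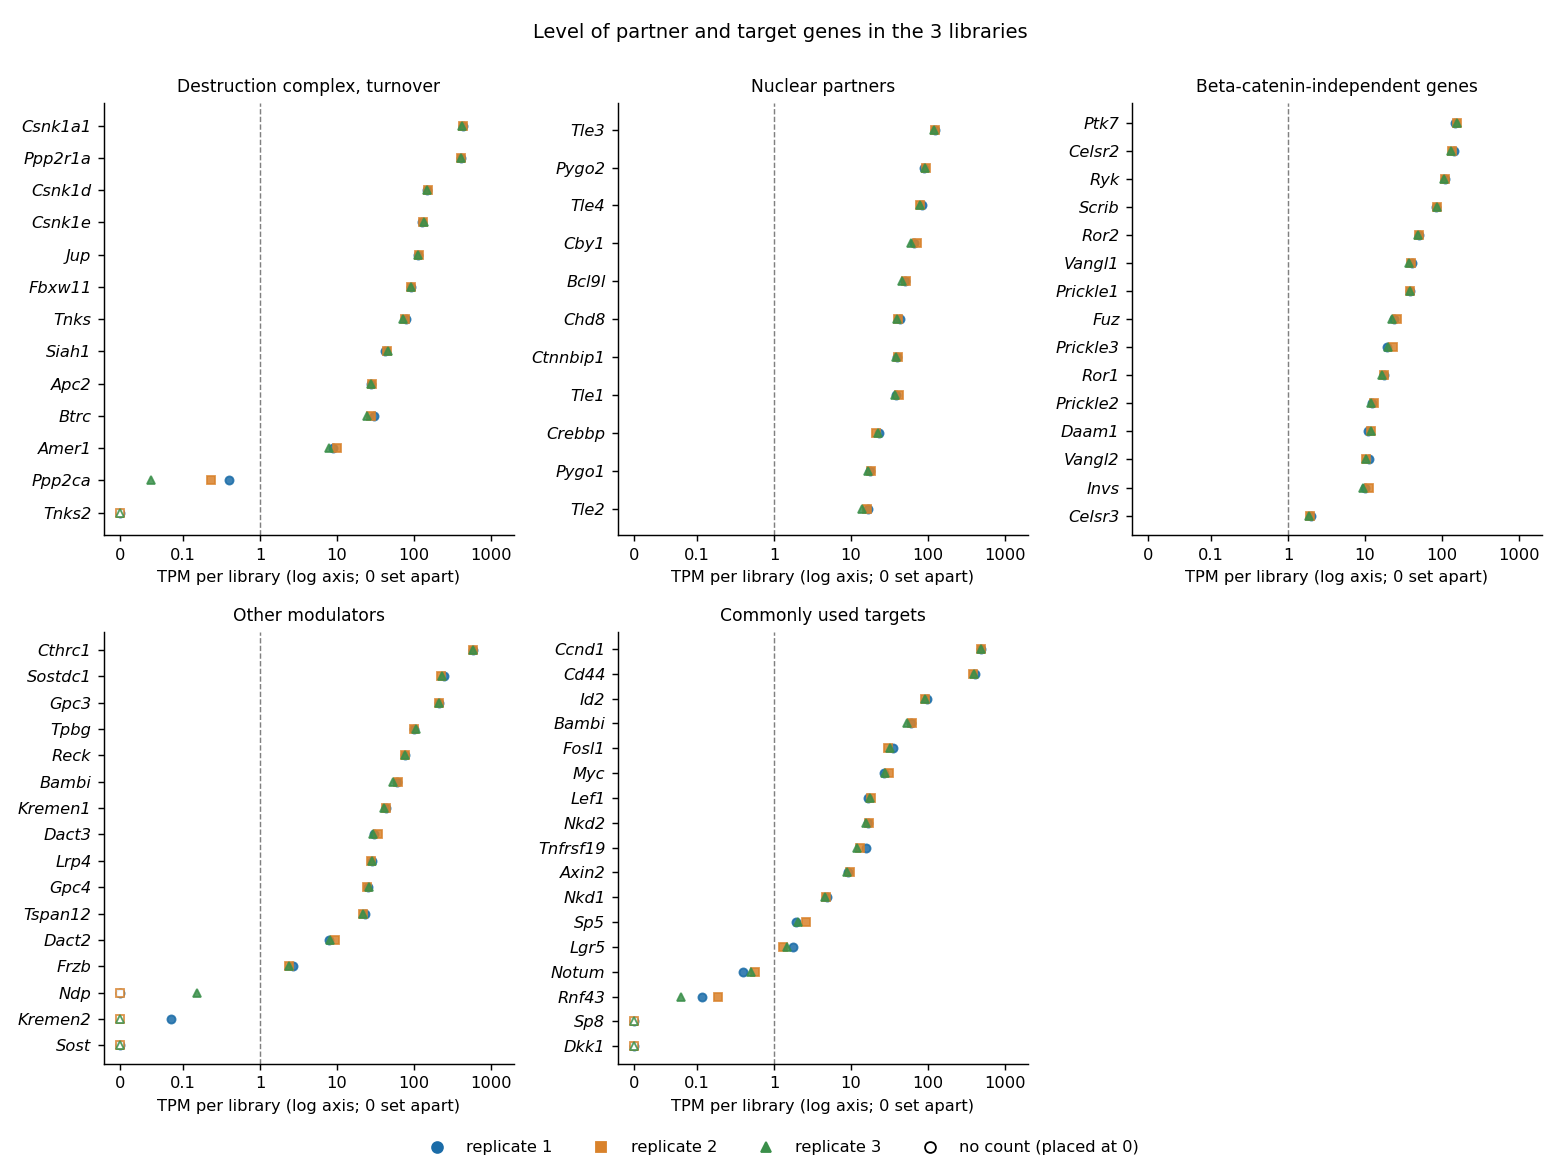
TPM of the measured partner and target genes in each library on log axes, by role, with 1 symbol per replicate, a dashed line at 1 TPM and open symbols at 0 for libraries with no count. All measured nuclear partners and beta-catenin-independent genes lie right of the dashed line, and Dkk1, Sp8, Sost and Tnks2 are at 0.

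Commonly used targets of beta-catenin signalling were spread over a wide range. Of 17 measured, 13 were above 1 TPM, 2 below (Rnf43 and Notum) and 2 at 0 (Sp8 and Dkk1). With 78.4% of all genes tested above 1 TPM and 60.6% of all listed genes at that level in each library, this count does not set the targets apart, and their median was 13.5 TPM. The highest were genes with many other regulators, namely the cyclin Ccnd1 at 498 ± 2.60, the adhesion receptor Cd44 at 400.0 ± 9.75, Id2 at 93.8 ± 4.16 and the BMP pseudoreceptor Bambi at 59.1 ± 4.71 TPM. Feedback genes chosen for mention after their values were seen were lower, with Nkd2 at 16.7 ± 0.611, Axin2 at 9.29 ± 0.474, Nkd1 at 4.75 ± 0.0821 and the transcription factor Sp5 at 2.19 ± 0.365 TPM. Without an unstimulated or stimulated group, these levels do not measure the activity of the pathway.

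Promoters were searched for the TCF/LEF motif CTTTGAT on both strands, in windows of 250 bases before to 50 after the start of each gene from RefSeq (GRCr8). Of the 58 members 42 had a window, and 1 of these held the motif, that of Axin2 (2.38%). The share was 3.08% over the 13391 windows of genes in the table, and 3.62% over all 27457 RefSeq windows of the same length. Of the 17 measured target genes 13 had a window, and the motif was in those of Axin2, Nkd1 and Sp5, at 132, 141 and 104 bases before the start. These windows are shown in GRCr8, in lower case with the motif in capitals, because they hold the recognition motif of the pathway's nuclear factors in genes whose level is given above. They lie at chr10:94398535-94398834 (plus strand), chr19:34722797-34723096 (minus strand) and chr3:75682427-75682726 (plus strand), and are written 5′ to 3′ along the gene.
Axin2: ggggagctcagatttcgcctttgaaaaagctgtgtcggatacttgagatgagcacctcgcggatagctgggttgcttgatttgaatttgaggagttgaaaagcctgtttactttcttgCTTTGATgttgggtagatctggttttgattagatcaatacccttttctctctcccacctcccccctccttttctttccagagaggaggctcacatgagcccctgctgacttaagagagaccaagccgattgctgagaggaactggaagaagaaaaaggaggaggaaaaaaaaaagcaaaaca
Nkd1: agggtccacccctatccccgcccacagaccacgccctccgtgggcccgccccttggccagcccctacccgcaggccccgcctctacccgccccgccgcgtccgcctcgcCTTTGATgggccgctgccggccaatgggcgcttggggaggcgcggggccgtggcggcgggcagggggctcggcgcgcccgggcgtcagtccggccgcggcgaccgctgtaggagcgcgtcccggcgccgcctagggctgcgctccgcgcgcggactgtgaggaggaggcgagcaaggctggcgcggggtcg
Sp5: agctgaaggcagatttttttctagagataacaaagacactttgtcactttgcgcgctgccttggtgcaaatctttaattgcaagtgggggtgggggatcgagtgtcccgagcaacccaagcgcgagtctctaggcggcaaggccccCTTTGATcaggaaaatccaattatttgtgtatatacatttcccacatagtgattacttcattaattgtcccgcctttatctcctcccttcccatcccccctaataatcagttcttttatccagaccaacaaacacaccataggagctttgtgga
A match is a description of letters, not of binding, and 3 windows with the motif in genes at 9.29, 4.75 and 2.19 TPM give no relation between motif and level.

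The windows also differed in CpG, a dinucleotide that is depleted in most of the vertebrate genome outside CpG islands. Many members that did not reach 1 TPM in each library had CpG-rich windows. In the 27 members at 1 TPM or more in each library the median ratio of observed to expected CpG was 0.82, close to 0.78 over 8491 genes of the table at that level. In the 15 other members it was 0.64, where all 4900 genes of the table below that level in some library had 0.26. A ratio of 0.6 or more was found in 10 of those 15 members (66.7%), in 5 of the 8 members with no count and a window (62.5%), and in 17.7% of those 4900 genes. Fzd10 and Fzd8 passed narrowly, at 0.605 and 0.606. Fzd8 and Dkk1, both among those 8, are listed at 2 places, and their 0 is not read as absence. No test was made, since genes are not replicates and members of a family share descent.

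**Figure D5:**
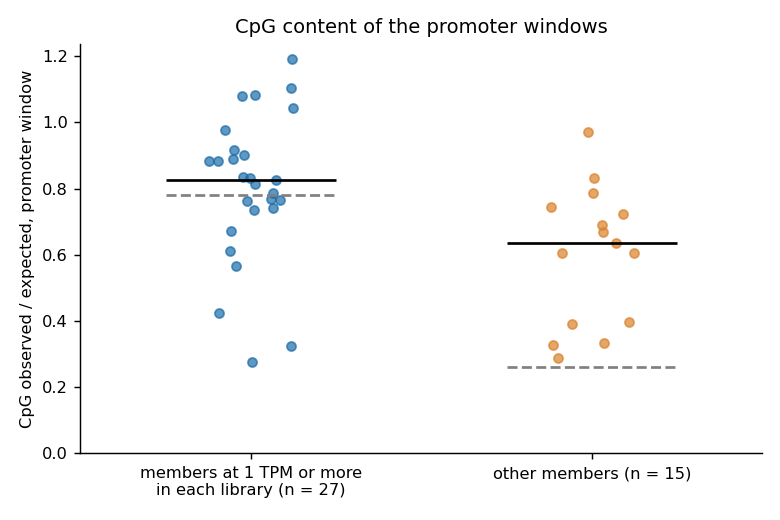
Ratio of observed to expected CpG in the promoter window of each of the 42 matched members, split by whether the member reached 1 TPM in each library; black lines are the medians of the members and dashed grey lines the medians of all genes of the table in the same class. Medians of members are 0.82 and 0.64, those of all genes 0.78 and 0.26.

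Levels of the members varied little between libraries. Over the 39 members with a mean of 1 TPM or more the median coefficient of variation was 5.44%, against 4.59% over the 10732 genes at that level. It ran from 0.803% for Porcn to 37.1% for Sfrp5. In 3 of the 39 members, Sfrp5, Wnt2b and Rspo3, the highest library was over 1.5 times the lowest, against 522 of those 10732 genes. All of these members rest on under 50 counts in each library. Of 40 neighbours in the order of levels within a role 11 had overlapping ranges.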

How the data were processed

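RNA was measured in 3 libraries of 1 group, made with a stranded poly(A) kit per the labels' protocols. The authors deposited raw counts per gene, gene lengths and TPM in 1 table. Per the submitters' processing notes, STAR 2.5.2b and Subread were used with the build rn6; the sources used here give no annotation, strand setting or handling of multiply matching reads, and genes with near-identical copies or antisense partners are uncertain. TPM remade from the deposited counts matched the deposited TPM to 0.0005 or better, within a tolerance of 0.001. Left out were 2 rows without a gene name, and 9 other columns of per-library values were not used. Two-place genes are those whose listed exons repeat in a second block, or lie on more than 1 chromosome or strand.

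Tests used limma 3.58.1 in R 4.3.3 on log2(TPM + 1), which makes differences of low genes look smaller. The limma test was also run on simulated data with the same spread beyond counting error for all genes. That setting cannot show how the test performs at the spread of these data. TMM factors for an alternative came from edgeR 4.0.16. Ratios of 13 of 19 listed pairs had 0.1 TPM added and exact sign-flip permutation tests. Poisson intervals (95%) and the floor of 3 counts reflect counting error alone, as the labels name no molecular identifiers. Promoter windows were matched by NCBI gene identifier. Members at 1 TPM or more are given per library, the rest by counts, range or name, and partners by the 4 highest of each role and those at 0; further genes named for their low level or as feedback genes were chosen after their values were seen. The members, lists and pairs were chosen with earlier results of these data known. Alternatives were other pseudocounts, filters, detection levels, variance estimates, TMM scaling, ratios without length, and leaving out each replicate or the two-place genes.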

Additional observations from a re-analysis of the deposited data

How the results depend on the processing

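Of 146 alternative values of 20 results, 137 kept their direction and, for counts, stayed within 1.5 times the reported number. With no filter on low values, which adds genes without a count to the test, the number below 1 TPM was 6235 for all genes, 19 for members and 9 for partner and target genes, in place of 2374, 10 and 5. Where a gene's mean had to reach 0.1 TPM, it was 1372 for all genes and 3 for partner and target genes, and without genes listed at 2 places it was also 3 for partner and target genes; in each case fewer genes were tested. For pairs, the ratio of depth-scaled counts with no length term turned Gsk3b over Gsk3a to -0.41 and Dvl1 over Dvl2 to 0.05, and leaving out 1 replicate at a time moved Dvl1 over Dvl2 between -0.09 and 0.01, the sign turning without replicate 3. The other 75 of 78 pair values kept their sign, though without the length term or with 1 TPM added the ratios of 6 pairs moved by more than 1.5-fold, on the log2 scale Fzd2 over Fzd1 to 1.28, Tcf7l2 over Lef1 to 2.20, Dkk3 over Dkk2 to 4.69, Wnt5a over Wnt5b to 2.24 and Wls over Porcn to 2.76 without length, and Lgr4 over Lgr5 to 6.12 with 1 TPM added. That of Sfrp1 over Sfrp2 is set by the amount added, being 7.79 with 1 TPM and 14.43 with 0.01 TPM. Of the 58 members, 39 were at or above the detection level at 0.5 TPM, 34 at 2 TPM and 27 at 5 TPM. Of all listed genes 63.1%, 57.8% and 53% reached these levels, so at 5 TPM the members fell below the share of all genes. Depth limits the members with few counts, among which ranges overlap for Rspo2 with Rnf43 and along the order from Wnt3 to Wnt7b. No paired analysis was possible because the labels give 1 group.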
